A study of Mus musculus with 19 samples.

Results

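Lungs of MutaMouse males (transgenic mouse strain 40.6, which carries a reporter for scoring mutations) at the highest dose of benzo(a)pyrene, 75 mg/kg/day, were compared with lungs at the next dose down, 50 mg/kg/day. The arrays labelled as high dose (5 mice) and as medium dose (4 mice) made up the comparison, 9 of the 19 arrays of the series. The other 10 arrays were 5 mice at 25 mg/kg/day and 5 controls with no benzo(a)pyrene, which the series title calls vehicle controls. All mice were 25 weeks old, were gavaged daily for 28 days and were sampled 3 days after the last dose, and all carried the same transgene. On each array, RNA from part of 1 lung was labelled with Cy5 and a purchased reference RNA made from several mouse cell lines with Cy3, with no dye swap. A level below is the log2 ratio of lung over reference, and a step is the level at 75 minus the level at 50 mg/kg/day. The question was whether the response flattens between these doses.

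Benzo(a)pyrene is a combustion product that binds the aryl hydrocarbon receptor (AhR), which switches on the cytochrome P450 genes Cyp1a1 and Cyp1b1. These enzymes turn the compound into epoxides that form adducts on DNA. Adducted DNA activates the transcription factor p53, whose targets stop the cell cycle, start apoptosis or take part in repair. A response that saturates gives smaller increments per unit of dose as dose increases.

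The labelled tissue carried its defining markers at both doses. Sftpc, the surfactant protein of alveolar type 2 cells, had levels of 6.74, 6.64, 6.44, 6.67 and 7.37 in the mice at 75 mg/kg/day, against 8.02, 7.08, 6.90 and 6.96 at 50 mg/kg/day. Ager, a marker of alveolar type 1 cells, lay between 5.13 and 5.39 at 75 and between 5.02 and 5.47 at 50 mg/kg/day.

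Some features of the arrays move with these groups. All 5 arrays at 75 mg/kg/day sat at position 4 of their slide. Of the 4 arrays at 50 mg/kg/day, 3 sat at position 3. Arrays at 25 mg/kg/day all sat at position 2, and controls at position 1 or 2. Position and dose can therefore hardly be told apart, in the step or in the comparisons with controls. The scanner software's quality report marked mouse 20 (75 mg/kg/day) and mouse 12 (50 mg/kg/day) for evaluation, with 2 controls. Between 54.28% and 62.89% of spots exceeded background in the lung channel at 75 mg/kg/day, against 45.62% to 57.95% at 50 mg/kg/day, and 0 spots were saturated on any array. Both doses were present on 3 slides, with mice 16 and 15, 19 and 14, and 20 and 12. The part that position and array quality have in the results was not tested, and within-slide values are given beside the main results.

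No gene passed the test for a difference between 75 and 50 mg/kg/day. In limma's fit over all 19 arrays, 0 of 19315 genes were called at an adjusted p under 0.05 (0.0% called), and the smallest adjusted p was 0.227. At an unadjusted p under 0.05, which is where the 95% interval of the step lies off 0, there were 946 genes (4.9%). Of these, 535 were higher (2.77%) and 411 lower (2.13%). About 966 would be reached by chance with no difference in any gene. The count of 946 became 584 without mouse 18 and 1496 without mouse 20. It was 1684 with slide as a fixed block, 1573 with slide as a random block, 1606 with scan day as a block and 2050 with array weights, and 0 genes were called at the adjusted threshold with any of the 3 blocks. With each array weighted by its spread, 22 genes were called, 18 of them higher, with weights of 0.457 for mouse 20 and 0.355 for mouse 12. The unweighted fit called 802 genes at 75 mg/kg/day against controls (4.15% called), 209 at 50 mg/kg/day (1.08% called) and 10 at 25 mg/kg/day (0.0518% called). These 3 comparisons share their controls, and whether the counts differ was not tested.

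The width of the intervals sets what the data can show. The median half-width of the 95% interval of the step was 0.24 on the log2 scale, which is 1.18-fold. For 17294 genes (89.54%) the whole interval lay within 1.5-fold in either direction, and for 18916 (97.93%) it lay within 2-fold. The share within 1.5-fold depended on the processing. It was 79.55% with a smaller offset in the background correction (16 in place of 50) and 63.01% with Feature Extraction's processed signals. Under median centring of the arrays it was 42.18%, and without a filter on dim probes it was 93.54%. A step beyond 2-fold was estimated for 3 genes higher and 45 lower. For the 399 genes outside the 2-fold bound, these included, the data allow a difference beyond 2-fold. An interval within a bound does not show a plateau either. That of Bax (0.19 to 0.58) lay within 1.5-fold and excluded 0. Genes called higher at the top doses pooled, described below, had a median response of 0.45 over controls. An undiminished last step can therefore lie within 1.5-fold.

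Genes that responded to the top doses had, in most cases, a step in the direction of their response. Responders were chosen by the mean of both top doses against controls, weighted by mice. The error of this choice is uncorrelated with that of the step if arrays are independent and equally variable, so the choice does not by itself fix the step's direction. Of 19315 genes, 556 were called higher (2.88%) and 331 lower (1.71%) at the top doses pooled. Among the 556, the step was above 0 in 421 (75.72%), against 49.3% of all genes tested, and its median was 0.10, against 0.00 over all genes. The interval of the step lay above 0 for 108 of them (19.42%, against 2.77% of all genes) and below 0 for 4. Among the 331 genes called lower, the step was below 0 in 230 (69.49%, against 50.7% of all genes), with a median of -0.07. The interval lay below 0 for 27 of these (8.157%, against 2.13% of all genes). Under median centring of the arrays 226 genes were called higher and 1 lower, and without control 2 the counts were 324 and 200. The median step of genes called higher was 0.145 without mouse 15, and that of genes called lower was -0.0367 without mouse 18. Genes are not independent replicates, and these shares are descriptions with no test.

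Among genes called higher, those with larger responses had larger steps. Of the 38 called higher by at least 2-fold, 34 had a step above 0, with a median of 0.39. The interval lay above 0 for 18 (47.37%, against 2.77% of all genes). The 518 called higher by less had a median step of 0.09, and the interval lay above 0 for 90 (17.37%). Among genes called lower the contrast was small. Of the 49 called lower by at least 1.5-fold, 40 had a step below 0, with a median of -0.10, against -0.07 over all 331. The interval lay below 0 for 11 (22.45%, against 2.13% of all genes).

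**Figure D1:**
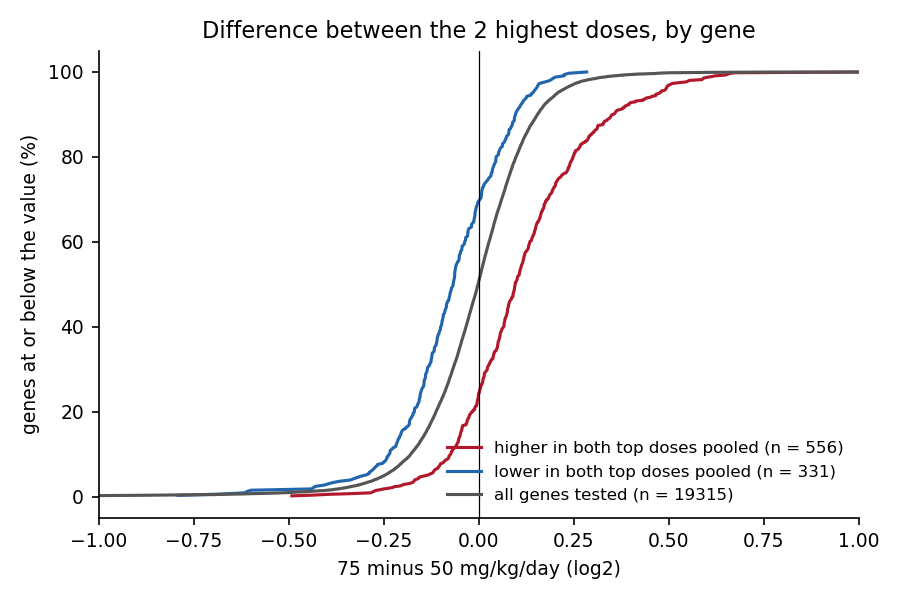
Cumulative share of genes (y axis, percent) by their step, 75 minus 50 mg/kg/day (x axis, log2), for genes called higher (n = 556) or lower (n = 331) in both top doses pooled against controls and for all 19315 genes tested. The red curve lies right of the grey one, with 75.72% of its genes above 0, and the blue curve lies left of it, with 69.49% below 0.

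Set out by mouse, the 2 doses overlapped. The median of the 556 genes, each taken relative to its control mean, was 0.58, 0.36, 0.55, 0.51 and 0.42 in mice 16 to 20 at 75 mg/kg/day, against 0.42, 0.37, 0.31 and 0.47 in mice 12 to 15 at 50 mg/kg/day. Mouse 17 at 75 mg/kg/day was below 3 of the 4 mice at 50 mg/kg/day. The group means ran -0.00 ± 0.04 in controls, 0.271 ± 0.028 at 25, 0.393 ± 0.069 at 50 and 0.485 ± 0.094 at 75 mg/kg/day (SD, n = 5, 5, 4 and 5). The distance from the controls is enlarged by the choice of genes, so the sizes of the lower increments cannot be set against the last one. Within slides, the median step of the 556 genes was 0.18 (mouse 19 minus 14), 0.12 (16 minus 15) and 0.04 (20 minus 12). For the 331 genes it was -0.11, -0.09 and 0.01, so the last slide, which holds both arrays marked for evaluation, went the other way.

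Targets of p53 made up 5 of the 10 named genes with the highest pooled response, and 6 of the 9 named genes that were already called at 25 mg/kg/day against controls. The increments of these 9 are described first. That comparison uses no group mean of the top doses, so the choice does not fix the direction of the steps of these genes. The spread behind the choice was estimated over all 19 arrays. Genes with a small spread, and so with narrow intervals of the step, are therefore favoured. They are Cdkn1a, which arrests the cell cycle, Bax and Ei24, which act in apoptosis, Gdf15, a secreted stress cytokine, Phlda3, an inhibitor of Akt, Trp53inp1, a p53 cofactor, Ephx1, the microsomal epoxide hydrolase that acts on benzo(a)pyrene epoxides, Matn2, a matrix protein, and Ephb2, a receptor of ephrins. The first 7 rose at 25 mg/kg/day, and Matn2 and Ephb2 fell. All 9 had a step in the direction of that response, and the interval excluded 0 for 6, although none was called over all genes.

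Short stretches of promoter are given for 4 p53 targets, because 16 of the 31 list members tested were called higher at the top doses pooled and the p53 half-site, a palindromic motif of 10 letters searched under that name, occurs in them. The sequences are RefSeq's, GRCm38.p6, in a window from 250 bases before to 50 after each gene's start. Capitals mark each match to the half-site. Cdkn1a lies at chr17:29090886-29090957 (plus strand), Ccng1 at chr11:40755442-40755491, Bax at chr7:45467070-45467119 and Mdm2 at chr10:117710915-117710964 (these 3 on the minus strand).
Cdkn1a: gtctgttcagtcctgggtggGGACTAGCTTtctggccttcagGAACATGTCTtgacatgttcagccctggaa
Ccng1: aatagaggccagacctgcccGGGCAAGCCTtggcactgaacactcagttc
Bax: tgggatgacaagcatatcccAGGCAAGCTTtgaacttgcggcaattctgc
Mdm2: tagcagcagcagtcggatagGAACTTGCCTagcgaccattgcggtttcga
A match was found in 10 of the 24 listed p53 targets that have a window (41.67%), in 40 of 339 named genes called higher at the top doses pooled (11.8%) and in 2582 of 27025 genes overall (9.554%). The 4 genes shown all had an interval of the step above 0. Matches also lay in Gadd45a, Ppm1d and Sesn1, with steps of -0.07, -0.02 and -0.22. Aen, Ei24 and Polk held matches too, with steps of 0.24, 0.24 and 0.21. Whether the half-site goes with the step was not tested. A match of letters is a description and not a binding site.

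Cdkn1a had levels of 2.40, 1.89, 2.51, 1.27 and 1.56 in mice 16 to 20 at 75 mg/kg/day, against 1.44, 1.35, 0.86 and 1.35 in mice 12 to 15 at 50 mg/kg/day. Mice 16, 17, 18 and 20 were above every mouse at 50 mg/kg/day, and mouse 19 lay within their range. The mean was 1.93 ± 0.53 at 75 and 1.25 ± 0.26 at 50 mg/kg/day (SD, n = 5 and 4). The step was 0.68 with a 95% interval of 0.18 to 1.18, or 1.60-fold (adjusted p = 0.968, limma). At 25 mg/kg/day the levels ran between -0.55 and 0.55, and in controls between -1.67 and -0.95, with no overlap with either top dose.

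Gdf15 stood at 1.73, 1.60, 1.82, 1.14 and 1.15 at 75 mg/kg/day, against 1.21, 1.41, 0.68 and 0.89 at 50 mg/kg/day. The groups overlapped, with mice 19 and 20 again the lowest at 75 mg/kg/day. Its step was 0.44 (95% interval 0.002 to 0.880). Bax, by contrast, showed no overlap, with 0.63, 0.40, 0.67, 0.40 and 0.19 at 75 mg/kg/day against 0.01, 0.06, 0.10 and 0.13 at 50 mg/kg/day. Its step was 0.38 (0.19 to 0.58), and the upper bound is about 1.5-fold.

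Trp53inp1 had the smallest step of the 7 rising genes. Its levels were 2.58, 2.53, 2.66, 2.60 and 2.32 at 75 mg/kg/day, against 2.62, 2.27, 2.10 and 2.28 at 50 mg/kg/day, where mouse 12 was as high as the mice at the top dose. The step was 0.22, and its interval of -0.01 to 0.45 reached 1.37-fold at most. Phlda3 averaged 2.33 ± 0.17 at 75 and 2.00 ± 0.22 at 50 mg/kg/day, with a step of 0.33 (-0.04 to 0.70). Ei24 averaged 1.14 ± 0.10 at 75 and 0.90 ± 0.15 at 50 mg/kg/day, with a step of 0.24 (0.08 to 0.39). Ephx1 averaged 1.63 ± 0.16 at 75 and 1.31 ± 0.21 at 50 mg/kg/day, a step of 0.31 (0.02 to 0.61).

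Matn2 reached -3.32, -3.04, -3.62, -3.28 and -3.16 at 75 mg/kg/day, against -3.23, -2.91, -2.98 and -2.87 at 50 mg/kg/day. Its step was -0.29 (-0.52 to -0.06), and mouse 12 at 50 mg/kg/day overlapped the top dose. Ephb2 averaged -1.38 ± 0.09 at 75 and -1.23 ± 0.15 at 50 mg/kg/day, with a step of -0.15 (-0.33 to 0.04) and a probe well above background in 3 of the 4 mice at 50 mg/kg/day. For Ephb2 the level at 25 mg/kg/day, -1.32 on average, was already as low as at 50.

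**Figure D2:**
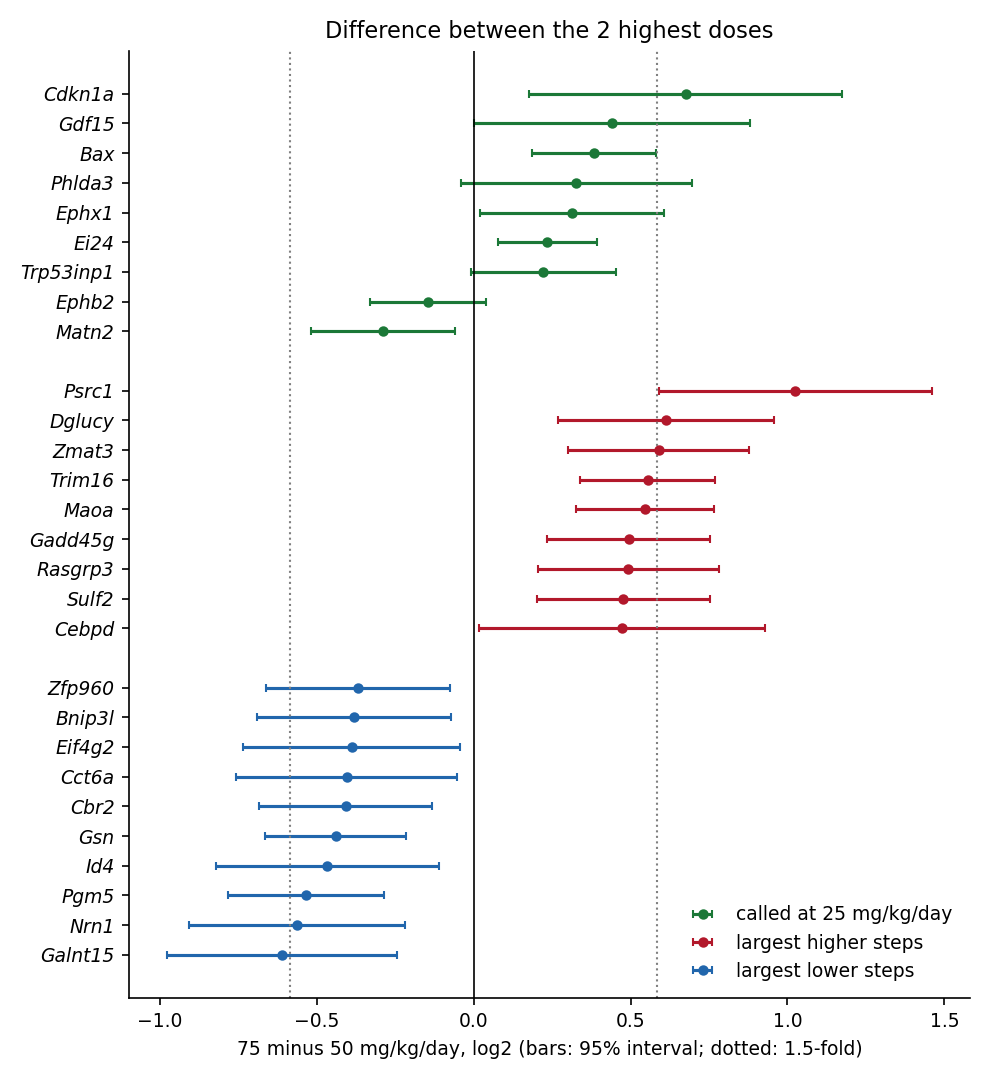
Step from 50 to 75 mg/kg/day (x axis, log2; points: estimate, bars: 95% interval; dotted lines: 1.5-fold) for the 9 genes called at 25 mg/kg/day and for the largest higher (9 shown) and lower (10 shown) steps among bright named genes whose groups did not overlap. Those below the upper 9 were chosen by their step, with an unadjusted p under 0.05 (limma) also required. Among the upper 9, the intervals of Phlda3, Trp53inp1 and Ephb2 include 0.

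For most of the 7 rising genes the last increment was smaller than the one before it, and how many departed from a straight line depended on the scale. The point estimate of the last increment was the smaller in 6 of the 7 on the log2 scale, in 5 in fold over control and in 4 per doubling of dose. On the log2 scale, Cdkn1a gained 1.36 between control and 25 mg/kg/day, 1.24 between 25 and 50, and 0.68 between 50 and 75 mg/kg/day. Gdf15 gained 1.28, 1.44 and 0.44, and Trp53inp1 0.75, 0.65 and 0.22 over the same intervals. A straight line through the control and 50 mg/kg/day levels predicts a last step of 0.5 times the earlier difference. The departure from it was -0.92 for Gdf15 (95% interval -1.51 to -0.33), -0.57 for Phlda3 (-1.06 to -0.07) and -0.48 for Trp53inp1 (-0.79 to -0.17). For Ei24 it was -0.21, with an upper bound just under 0, and for Cdkn1a it was -0.63, with an interval of -1.30 to 0.05 that includes 0. Bax lay on the line, with a departure of -0.07 (-0.34 to 0.19).

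No departure was called over all genes. Of 19315 genes, 0 had an adjusted p under 0.05 for the straight-line departure (0.0% called, smallest adjusted p 0.84), and 900 were off 0 without adjustment (4.66%), 445 of them below it (2.3%). For the last step minus the step before it, 0 genes were called (0.0%), and 695 were off 0 without adjustment (3.6%). In either comparison about 966 would be off 0 by chance. The 9 genes were chosen against the same controls that anchor the line, which enlarges their early increment, so their departures are not independent of the choice.

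In units of fold over control, Cdkn1a and Bax had a last increment larger than the one before it, and the other 5 a smaller one. Cdkn1a stood at 2.57-fold over control at 25, 6.07-fold at 50 and 9.69-fold at 75 mg/kg/day, gains of 1.57, 3.50 and 3.62. Its departure from a straight line in fold was 1.09, with an interval of -2.16 to 4.34. Gdf15 gained 1.43, 4.16 and 2.36 in fold, and its departure of -0.44 had an interval of -3.33 to 2.45. Trp53inp1 gained 0.69, 0.95 and 0.44 (departure -0.38, interval -0.96 to 0.20). For 0 of the 9 genes did the interval of the departure in fold lie off 0, whereas for 4 of them it did so on the log2 scale. The background correction adds an offset that compresses folds of dim spots, and no spot was saturated.

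Expressed per doubling of dose, the last step of Cdkn1a was 1.15 on the log2 scale, against 1.24 for the doubling between 25 and 50 mg/kg/day. Gdf15 had 0.75 against 1.44, and Trp53inp1 0.38 against 0.65. Bax went the other way, with 0.66 against 0.34, as did Ephx1, with 0.54 against 0.45, and Ei24, with 0.40 against 0.35. These are differences between point estimates and were not tested per doubling.

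**Figure D3:**
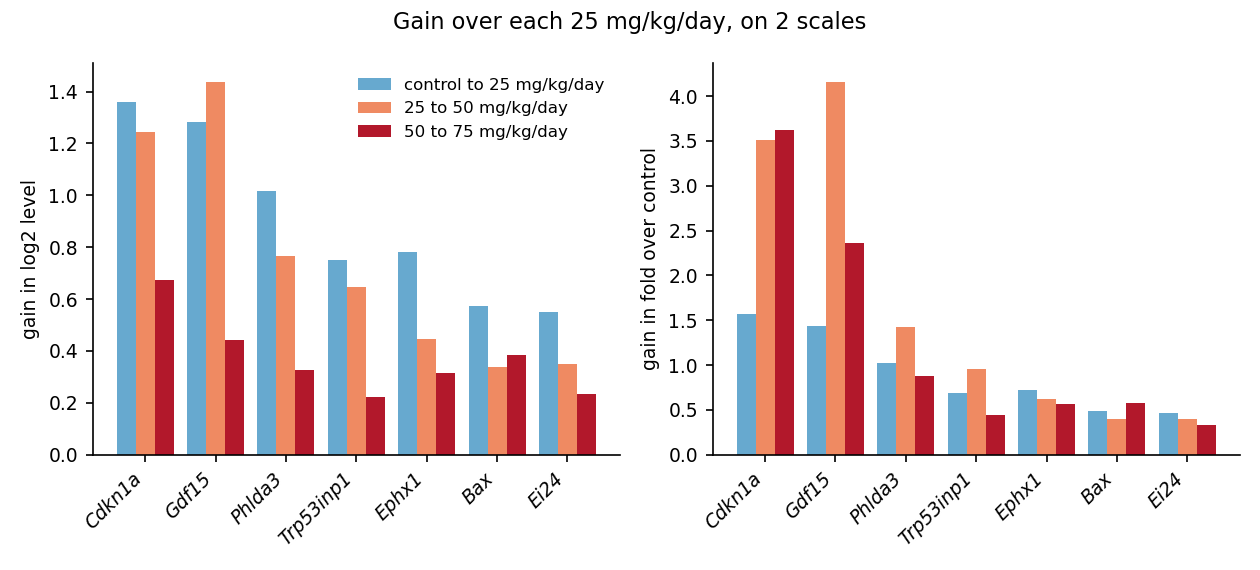
Gain over each 25 mg/kg/day for the 7 genes that rose at 25 mg/kg/day, as a difference in log2 level (left) and in fold over control (right); bars are point estimates without errors. On the left the last bar of Cdkn1a (0.68) is the lowest of its 3, and on the right it is the highest (3.62).

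**Figure D4:**
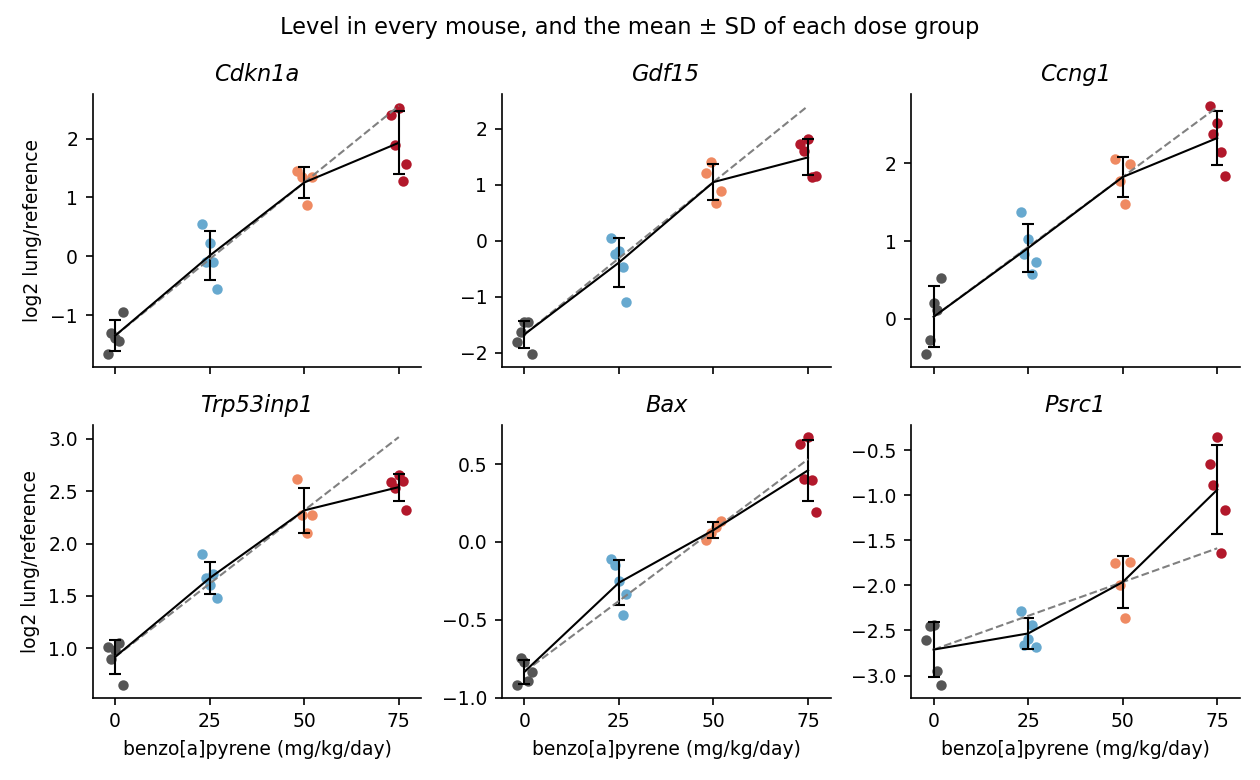
Levels (y axis, log2 lung over reference) of 6 p53 targets by dose (x axis, mg/kg/day), 1 point per mouse, with the mean and SD of each group joined by a line. The dashed line runs straight through the control and 50 mg/kg/day means. Gdf15 and Trp53inp1 end below it, Bax near it and Psrc1 above it.

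Over the whole p53 list, 31 of 32 genes were tested and 24 had a step above 0, with a median of 0.21, against 0.00 over all genes. The median was 0.124 without mouse 14. The interval lay above 0 for 8 of the 31 (2.77% of all genes did so) and below 0 for 0. These 8 are Bax, Cdkn1a, Ei24, Gdf15, Ccng1, Mdm2, Psrc1 and Zmat3. None was called over all genes. The list's mean level relative to controls ran between 0.711 and 0.977 at 75 mg/kg/day, against 0.493 to 0.760 at 50 mg/kg/day, with an overlap at mouse 12.

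Psrc1, a microtubule-associated protein, had the largest step of the list. Its levels were -0.65, -0.89, -0.35, -1.64 and -1.16 at 75 mg/kg/day, against -1.75, -1.998, -2.36 and -1.74 at 50 mg/kg/day, with no overlap. The step was 1.02 (0.59 to 1.46, adjusted p = 0.227, limma), and the straight-line departure was 0.65 (0.07 to 1.23). This departure contains the step by which Psrc1 was singled out, so a value above 0 is favoured by the choice. Over the 31 genes of the list the log2 departure was below 0 in 21. Its interval lay below 0 for 4 (2.3% of all genes) and above 0 for Psrc1 alone. In fold over control Psrc1 gained 0.13, 0.55 and 1.74 over the 3 intervals. Its other 2 probes gave steps of 0.57 and 0.30. Zmat3, an RNA-binding p53 target, followed with 0.84, 0.69, 1.18, 0.42 and 0.47 at 75 mg/kg/day, against 0.29, 0.10, 0.01 and 0.13 at 50 mg/kg/day, a step of 0.59 (0.30 to 0.88). Both were among the genes called when arrays were weighted.

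Ccng1, cyclin G1, and Mdm2, the ubiquitin ligase that degrades p53, had steps of 0.50 (0.07 to 0.93) and 0.33 (0.03 to 0.64). The largest negative steps in the list were -0.29 for Perp, a desmosomal protein, and -0.22 for Sesn1, a sestrin, and both intervals include 0. Ppm1d, Ddb2, Tigar and Gadd45a had steps between -0.07 and -0.01, so the list did not move as a block. For Tigar another probe gave 0.30.

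Within the 3 slides that hold both doses, the step of Cdkn1a was 0.41, 1.05 and 0.12, that of Gdf15 was 0.46, 0.84 and -0.06, and that of Ccng1 was 0.68, 0.74 and -0.21. The pair of mouse 20 and mouse 12 gave the lowest value each time. Psrc1 gave 0.72, 1.09 and 0.59, Zmat3 0.41, 0.71 and 0.19, and Bax 0.30, 0.50 and 0.18, above 0 on all 3 slides. For each of these genes every mouse at 75 was above every mouse at 50 mg/kg/day. The direction within slides was therefore fixed beforehand and adds nothing. In all, 11 of the 31 genes had the direction of their step on all 3 slides. The step uses these same mice, which by itself favours a shared sign. The share over all genes was not computed, so this count carries no result about the list.

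The AhR pathway had no gene off 0. Of 9 genes tested, 5 had a step above 0, and the median was 0.07. Cyp1a1 stood at 0.31, 0.23, 0.45 and 0.13 in mice 16 to 19 and at 7.30 in mouse 20 at 75 mg/kg/day, against 0.97, 0.55, 0.40 and 0.32 at 50 mg/kg/day. The Cyp1a1 probe was well above background in 3 of the 5 mice at 75 mg/kg/day. The step of 1.12 had an interval of -0.99 to 3.23, and without mouse 20 it was -0.28. Cyp1b1 showed the same mouse apart, with 2.43 in mouse 20 against -1.13 to -0.62 in the other 4, and a step of 0.70 (-0.26 to 1.66) that was 0.05 without it. Mouse 20 also had the highest Nqo1, a quinone reductase (0.44, against -1.38 to -1.20 in the other mice at its dose) and Ahrr, the AhR repressor (1.10, against -0.01 to 0.10).

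**Figure D5:**
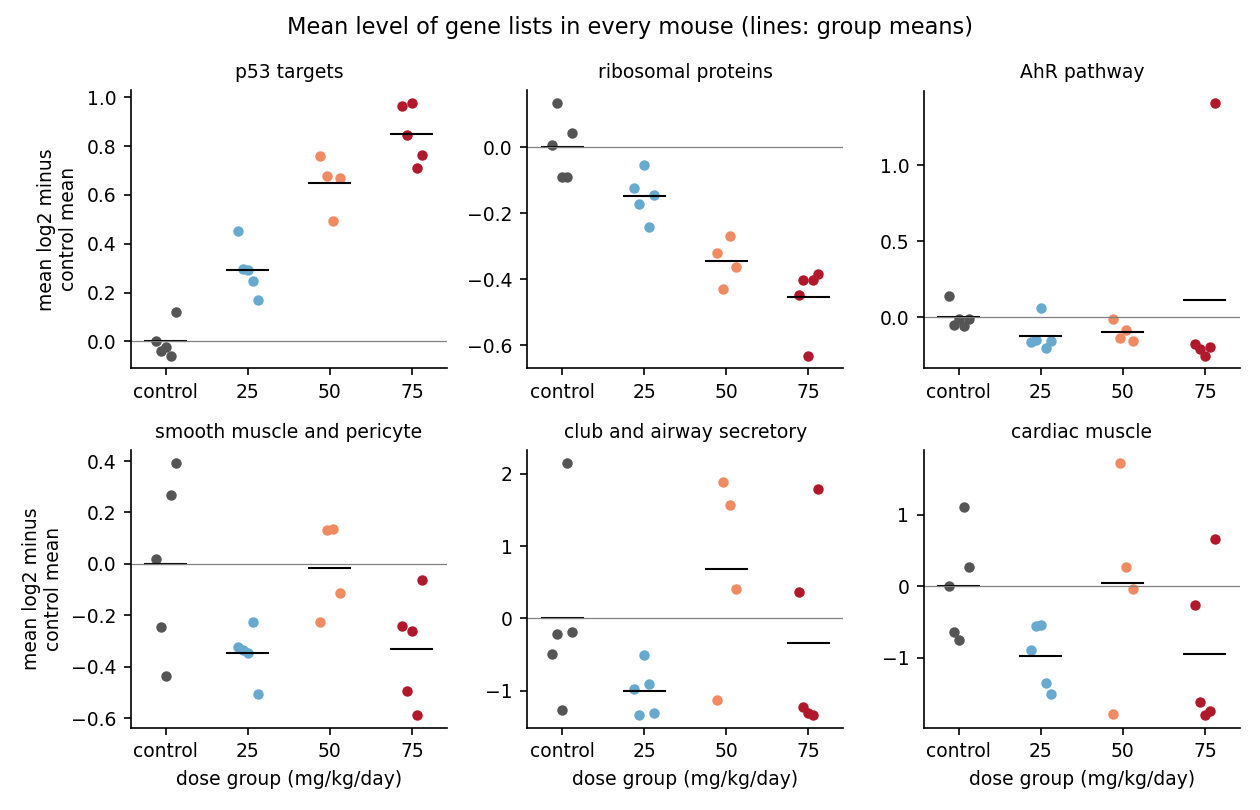
Mean log2 level of 6 gene lists minus the control mean (y axis) in every mouse, by dose group (x axis, mg/kg/day; lines: group means). The p53 list runs between 0.711 and 0.977 at 75 mg/kg/day, and mouse 20 stands alone in the AhR pathway at 1.41. The club and cardiac lists spread widely at both top doses, and their values overlap.

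Among the other detoxification genes, the inducible antioxidant Srxn1 had the clearest step. It stood at -0.50, -0.57, -0.48, -0.71 and 0.02 at 75 mg/kg/day, against -1.03, -0.86, -0.92 and -0.80 at 50 mg/kg/day, with no overlap. The step was 0.46 (0.21 to 0.70), while the levels at 25 mg/kg/day and in controls (-1.06 to -0.67 and -1.01 to -0.76) were those of 50 mg/kg/day. Without mouse 20 the step was 0.34. G6pdx, which supplies NADPH, was the other member of 14 NRF2 and metallothionein genes off 0, with a step of 0.24 (2.77% of all genes lay above 0). In xenobiotic metabolism, Ephx1 and Akr1b10, an aldo-keto reductase, were the 2 of 30 genes off 0, both above it, a share near that of all genes (4.9%).

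Outside these lists, bright, named genes were ranked by step if their doses did not overlap and the unadjusted p of the step was under 0.05 (limma). Of 10219 bright named genes, 142 met this. Over all 19315 genes, without limits on p, brightness or name, 214 (1.11%) did not overlap with 75 mg/kg/day higher and 131 (0.678%) with it lower. The ranked genes were chosen by their step, and their values are a description. Besides those of Psrc1 and Zmat3, the largest belonged to Dglucy, an enzyme of D-glutamate breakdown (0.61), Trim16, a ubiquitin ligase of the tripartite motif family (0.55), and Maoa, monoamine oxidase A (0.55). Trim16 stood at 3.31, 3.02, 3.35, 3.02 and 2.81 at 75 mg/kg/day, against 2.61, 2.59, 2.42 and 2.56 at 50 mg/kg/day. Maoa stood at 0.61, 0.69, 0.78, 0.76 and 0.39 at 75 mg/kg/day, against -0.18, 0.17, 0.24 and 0.19 at 50 mg/kg/day. Mouse 12 lay below every mouse at 25 mg/kg/day (0.08 to 0.42) and every control (-0.02 to 0.33), and the other 3 lay within both ranges. The highest 10 also hold Gadd45g, a stress sensor, Rasgrp3, an exchange factor of Ras, Sulf2, a heparan sulfatase, and Cebpd, a transcription factor, with steps between 0.47 and 0.49.

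The largest lower steps belonged to Galnt15, a glycosyltransferase (-0.61), Nrn1, neuritin (-0.56), and Pgm5, a protein of muscle adhesion sites (-0.53). Galnt15 stood at 1.95, 1.99, 2.06, 2.21 and 2.05 at 75 mg/kg/day, against 2.85, 2.73, 2.44 and 2.63 at 50 mg/kg/day, with controls at 2.87 to 3.67. Pgm5 stood at 1.73, 1.36, 1.67, 1.91 and 1.98 at 75 mg/kg/day, against 2.22, 2.28, 2.40 and 2.16 at 50 mg/kg/day, but its other probe gave a step of 0.05. Gsn, the actin-severing protein gelsolin, had levels of 2.87, 3.08, 2.90, 3.21 and 3.42 at 75 mg/kg/day, against 3.46, 3.52, 3.63 and 3.54 at 50 mg/kg/day. The rest were Id4, Cbr2, Cct6a, Eif4g2, Bnip3l and Zfp960, with steps between -0.47 and -0.37. Of these 10, Galnt15 (0.43-fold), Gsn (0.69-fold) and Cbr2 (0.69-fold) were called lower at 75 mg/kg/day than in controls, and the other 7 were not. Under median centring of the arrays, which moves the median step of all genes to 0.20, the steps of Gsn, Cbr2, Eif4g2 and Bnip3l were above 0.

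The genes with the largest pooled response that lie outside the p53 list varied in their steps. Mmrn2, an endothelial matrix protein, had levels of 8.13, 7.42, 8.12, 7.02 and 7.07 at 75 mg/kg/day, against 7.00, 7.18, 6.30 and 7.13 at 50 mg/kg/day, a step of 0.65 (0.08 to 1.22). Ces2e, a carboxylesterase, was 8.05-fold over control at 75 and 5.82-fold at 50 mg/kg/day, although its probe was well above background in only 2 of the 5 controls. It had a step of 0.47 (-0.04 to 0.97) and a log2 straight-line departure of -0.80 (-1.48 to -0.13). Its other probe, however, had log2 differences from controls of 0.24 at 75 and -0.00 at 50 mg/kg/day. Choosing genes by their pooled response, against the controls that anchor the line, favours a departure below 0. All 10 genes with the highest pooled response had one. Marco, a scavenger receptor of macrophages, went against the rest in the sign of its step. It was 2.65-fold over control at 75, 3.20-fold at 50 and 0.75-fold at 25 mg/kg/day, and its step of -0.27 had a wide interval, -1.21 to 0.67.

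Among the genes with the largest pooled decrease, Gpihbp1, which anchors lipoprotein lipase on capillaries, stood at 3.37, 3.02, 3.24, 3.88 and 2.79 at 75 mg/kg/day, against 4.06, 3.69, 3.62 and 4.38 at 50 mg/kg/day. Its step was -0.68 (-1.09 to -0.27), and the level at 25 mg/kg/day (4.36 to 4.92) was that of controls (4.44 to 4.96). Within slides its step was 0.26, -1.01 and -1.28. Car14, a carbonic anhydrase, had a step of -0.43 (-0.83 to -0.03). For Chil3, a macrophage chitinase-like protein, Mt2, a metallothionein, and Tmeff2, a transmembrane protein, the step lay between -0.01 and 0.22 with intervals that include 0. The widest of these, for Chil3, ran between -0.73 and 1.01, which leaves a difference of up to 2-fold possible.

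Markers of cell types that whole lung tissue can hold were set beside these results, because in a piece of tissue fewer cells of a type and less RNA per cell cannot be told apart. All 8 club and airway secretory markers tested had a step below 0 (median -1.20), but 0 had an interval off 0. Their mean level ran between -1.34 and 1.79 at 75 mg/kg/day, against -1.13 to 1.89 at 50 mg/kg/day. Cardiac muscle markers had 13 of 15 steps below 0 (median -1.28), an interval below 0 for Actc1 alone, and mean levels of -1.80 to 0.66 at 75 mg/kg/day, against -1.78 to 1.73 at 50 mg/kg/day. Mice 16 and 20 at 75 mg/kg/day and mice 13, 14 and 15 at 50 mg/kg/day carried the higher levels of both lists. The part of such differences between lung pieces in the steps was not tested.

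Smooth muscle and pericyte markers had 9 of 10 steps below 0, with a median of -0.38 (0.01 under median centring, which is -0.19 relative to all genes). Intervals lay below 0 for Acta2, Actg2 and Pdgfrb (2.13% of all genes lay below 0). Acta2, smooth muscle actin, stood at -1.34, -1.36, -1.54, -1.60 and -0.99 at 75 mg/kg/day, against -0.92, -0.68, -0.45 and -1.02 at 50 mg/kg/day. Its step of -0.60 (-0.91 to -0.29) was not shared by its other 2 probes, which gave -0.06 and -0.15, and the mice at 25 mg/kg/day (-1.45 to -1.10) were as low as those at 75. Capillary and vascular endothelium had a median of -0.03 over 25 genes, with Mmrn2 and Apln, an endothelial peptide, above 0 and Gpihbp1 below (4.9% of all genes lay off 0). Of 6 lymphatic endothelium markers tested, 2 had a step above 0 and 4 below, with a median of -0.12. Lyve1, a hyaluronan receptor of lymphatic endothelium and some macrophages, had a step of 0.66 (0.14 to 1.18). The interval lay below 0 for Thy1, with a step of -0.32, but its other probe gave 0.00.

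Ribosomal protein genes had steps below 0 in 61 of 77, with a median of -0.11, and intervals below 0 for 4, Rpl37, Rpl7, Rps24 and Rps4x (2.13% of all genes lay below 0). Their mean level was -0.453 ± 0.102 at 75 and -0.345 ± 0.068 at 50 mg/kg/day (SD, n = 5 and 4), and the doses overlapped. The list's median step was 0.04 in the authors' deposited log2 ratios and 0.47 under median centring, where these 4 genes had steps of 0.32 to 0.41, so the direction rests on the scaling. Proliferation genes had steps below 0 in 24 of 27 (median -0.12), with Ccna2, cyclin A2, off 0 at -0.38, but under median centring 25 of the 27 were above 0, and their median exceeded that of all genes by 0.05.

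Inflammatory genes mostly had steps above 0, under each scaling tried. This held for 12 of 15 NF-kB and acute inflammation genes (median 0.30), and the interval lay above 0 for Ccl2, a monocyte chemokine, and Tnfaip3, an inhibitor of NF-kB (2.77% of all genes lay above 0). The list's mean level overlapped between doses, at 0.14 to 0.55 at 75 and -0.19 to 0.41 at 50 mg/kg/day. Mice 14 and 15 at 50 mg/kg/day were low (-0.19 and -0.11), mice 12 and 13 were not (0.41 and 0.32), and controls ran between -0.25 and 0.39. Tnfaip3 stood at 0.54, 0.53, 0.75, 0.31 and 0.68 at 75 mg/kg/day, against 0.03, 0.33, -0.12 and 0.23 at 50 mg/kg/day, with an overlap at mouse 19. In the interferon response 18 of 20 steps were above 0 (median 0.14), with Cxcl10, a chemokine, off 0 at 0.52, but its probe was well above background in only 2 of the 4 mice at 50 mg/kg/day and 2 of the 5 controls. Of 23 DNA repair genes, Ercc1 and Rad23b, both of nucleotide excision repair, had steps of 0.21 and 0.25 off 0, and Pcna, the replication clamp, had -0.18. Over all genes 4.9% lay off 0, and counts this small, here and for interferon, carry no result about the lists.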

How the data were processed

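RNA of 19 lungs was measured on 2-colour Agilent arrays. Deposited spot intensities came from Feature Extraction (version 10.7.3.1 according to the files), with 45018 spots per array. The authors also deposited a table of log2 ratios of lung over reference, whose scale and direction were found by comparison with the scanner values (r of at least 0.995). How it was centred is unknown.

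Median spot intensities were background-corrected (normexp, offset 50) and normalized by loess in limma 3.58.1 under R 4.3.3. Control spots had weight 0, and outlier spots (0.29%) were left out. Spots were averaged per probe. Of 41174 probes, 23374 were named through a RefSeq table by accession. Probes had to be well above background with lung RNA on 4 or more arrays (24501), and each gene was represented by its brightest probe (19315 genes, 12323 with a symbol). For 34 of the 108 named genes several probes passed, and for 8 another probe had a step of the opposite sign.

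One linear model with 4 group means covered the 19 arrays (lmFit, eBayes). Contrasts were the step, the straight-line departure, the last step minus the one before, both top doses pooled against controls, and each dose against controls. Adjustment was by Benjamini-Hochberg over all genes, at 0.05, and limma's p-values measure the spread between mice. The pooled contrast weights mice equally. Intervals are at 95% and are not adjusted for the number of genes. The interval of a departure in fold was derived from the log2 fit by the delta method. The fits were tested on simulated data.

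The named genes were those called at 25 mg/kg/day; the 10 highest and 10 lowest steps among bright genes with p under 0.05 and groups that do not overlap; the 10 highest and lowest responses to the pooled top doses; all tested p53 and AhR genes; and members of other lists with p under 0.05 for the step. Some genes that meet the rule are not reported here. The comparison, the lists and the rule were chosen with earlier results of these data known. Alternatives were other background corrections, scalings, filters, blocks and arrays left out; the step per doubling and the within-slide medians were chosen after seeing the data. Of the 5 mice per group in the series' design, the arrays of 4 at 50 mg/kg/day were used here.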

Additional observations from a re-analysis of the deposited data

Results flagged for a closer look

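Of 160 sets of values in a dose group that were examined, 11 held a mouse far from the others, and about 1 in 20 would do so by chance. At 75 mg/kg/day, mouse 20 stood apart for Cyp1a1 (7.3, against 0.128 to 0.454 in the other 4 mice), for Cyp1b1 (2.43, against -1.13 to -0.617) and for the mean level of the AhR pathway (1.41, against -0.253 to -0.176). Its array is 1 of the 4 marked for evaluation in the quality report. Mouse 18 was low for the mean of ribosomal protein genes (-0.631, against -0.446 to -0.383). Mouse 16 was high for Phlda3 (2.62, against 2.22 to 2.28), and mouse 19 was high for Tmeff2 (1.2, against -0.0629 to 0.107).

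At 50 mg/kg/day, mouse 12, whose array is also marked for evaluation, was high for Bnip3l (0.792, against 0.472 to 0.525), Thyn1 (0.698, against -0.291 to -0.139) and Zfp960 (0.89, against 0.377 to 0.417). Mouse 14 was low for Cdkn1a (0.863, against 1.35 to 1.44) and Gadd45g (-0.674, against -0.256 to -0.176).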

How the results depend on the processing

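The count of 0 genes called for the step held in 33 of 35 alternatives, with 22 called under array weights and 1, Olfr1043 (chosen after its value was seen), under Feature Extraction's processed signals, where it was also the 1 gene called for the straight-line departure and the 1 for the last step minus the one before. The 8 named genes among the 22 were Acta2, Bax, Gsn, Maoa, Pgm5, Psrc1, Trim16 and Zmat3. The count of genes with an interval off 0 was 2050 under array weights, 479 under median centring (447 higher, 32 lower), 1640 of 33269 without a filter on dim probes, 1606 with scan day as a block, 1684 with slide as a fixed block and 1573 with slide as a random block. With 1 mouse left out it ran between 584 (without mouse 18) and 1496 (without mouse 20). The 887 calls for the pooled top doses became 1510 with processed signals, 227 under median centring (1 lower), 1540 with scan day, 1790 with slide fixed and 1943 with slide random, and 524 (without control 2) to 1025 (without mouse 12) with 1 mouse left out. The causes were not tested.

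The median step of all genes was 0.009736 in the authors' deposited log2 ratios, 0.02815 with processed signals and 0.1986 under median centring. Under that centring the median step was 0.3599 for 226 genes called higher, -0.1496 for the 1 called lower and 0.4665 for the p53 targets, and 42.18% of genes had the whole interval within 1.5-fold. Relative to the shift of all genes, the p53 median was 0.27. Named steps that turned above 0 there included those of Bnip3l (0.03054), Cbr2 (0.2143), Eif4g2 (0.009955), Gsn (0.1543), Matn2 (0.04208), Pcna (0.2627), Pdgfrb (0.1156), Rpl37 (0.3194), Rpl7 (0.3322), Rps24 (0.4047), Rps4x (0.4119), Tcf7 (0.03048), Thy1 (0.09245) and Tppp3 (0.08807). The median step of genes called lower was -0.1346 without the arrays marked for evaluation and turned to 0.01396 within the slide of mice 20 and 12. No paired analysis was possible because the labels give no replicate number to more than 1 group; slides holding both doses served as blocks, as given above. The number of arrays limits precision.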
